A study of Homo sapiens with 4 samples.

Results

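Cadherins are calcium-dependent adhesion proteins that join neighbouring cells, and the set described here holds the numbered cadherin genes other than the endothelial CDH5, the protocadherin genes that lie outside the large gene clusters, and the alpha and delta catenin genes. Members were taken by symbol from the deposited table of counts per gene, which gave 39 of its 25690 rows. They comprised 22 cadherins, 12 protocadherins and 5 catenins. The libraries came from H9, a human embryonic stem cell line, at day 7, in a series on non-neural ectoderm, from which epidermis and cranial placodes form. The labels put 2 libraries in a group whose genotype reads TFAP2A knockout and 2 in a wild-type (WT) group. TFAP2A encodes AP-2 alpha, a transcription factor of that tissue. Both groups share the line and the day, and the sources used here give no growth protocol, clone, guide or statement that the libraries came from separate cultures. The p-values thus reflect only how far these libraries varied, and that variation may be technical.

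In classic cadherins the outer part binds cadherins on the next cell, and the inner tail binds beta-catenin and, nearer the membrane, the delta catenin p120. Beta-catenin binds an alpha catenin, which links the complex to actin. Type I classic cadherins include the epithelial (E), placental (P) and neural (N) forms, whereas type II forms are mostly known from the nervous system and mesenchyme. Exchange of E-cadherin for N-cadherin is a known step when neural tissue separates from surface ectoderm. Non-clustered protocadherins lack the catenin-binding tail, and the delta-1 and delta-2 groups are known mainly from the developing brain.

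The libraries held 19305868 and 21797850 counts in the knockout-labelled group, and 17945210 and 17838204 counts in the WT group. Levels are given as CPM, counts scaled to the size of the library. TFAP2A itself had 133 and 121 CPM in the knockout-labelled libraries, against 171 and 198 CPM in the WT libraries. TFAP2C, which the titles of the knockout-labelled libraries name in place of TFAP2A, had 8.89 and 5.77 CPM there, against 27.5 and 30.6 CPM in the WT libraries. The log2 fold change was -0.54 for TFAP2A and -1.99 for TFAP2C. A count per gene does not say which exons were read, so these values do not show which gene was edited. The groups follow the genotype label, which was not settled by this check. Markers of simple epithelium summed to 2554 to 2609 CPM in the knockout-labelled libraries and 3239 to 3429 CPM in the WT libraries, with 5 of 8 lower and 0 higher. Of the non-neural ectoderm markers 5 of 8 were lower and 0 higher, and none was at 0 in either group. Those lower were TFAP2A and TFAP2C themselves, GATA3, DLX5 and KRT8, and the list shares KRT8 and KRT18 with that of simple epithelium. Of all tested genes 22.3% were lower and 21.9% higher. Of 8 neural ectoderm markers 6 could be tested, of which SOX1, SOX2, SOX3, PAX6 and LHX2 were higher and NES was lower (the calls of SOX2 and LHX2 were lost without WT replicate 2), and the summed level was 191 to 202 CPM in the knockout-labelled libraries against 271 to 284 CPM in WT. NES supplied most of that neural ectoderm sum, with 129 and 141 CPM in the knockout-labelled libraries against 265 and 252 CPM in WT. Its fall set the direction of the sum, since the other 5 tested were higher. Mesenchyme markers summed to 9226 to 10620 CPM in the knockout-labelled libraries and to 11360 to 11720 CPM in the WT libraries, mostly from COL3A1, COL1A1 and COL1A2. Of these 8 markers 4 were lower, 1 was higher and 3 did not pass. PRRX1 (log2 fold change -2.55), POSTN (-2.45), TWIST1 (-0.45) and COL3A1 (-0.32) were lower and LUM (0.36) was higher. COL1A1, COL1A2 and PDGFRA did not pass. In bulk RNA, fewer cells of a type and less RNA per cell cannot be told apart.

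Of the 39 members, 31 had enough counts to be tested. Among these, 11 were higher and 12 were lower in the knockout-labelled libraries, and 8 did not pass (edgeR, quasi-likelihood, p-values adjusted by Benjamini and Hochberg across 15643 genes, threshold 0.05). That is 74.2% of the tested members, beside 44.2% of all tested genes. By direction, the background was 21.9% of all genes higher and 22.3% lower. Where a change of 1 or more on the log2 scale was also required, 8 members were higher and 4 lower, beside 4.49% and 6.77% of all genes. The members' median log2 fold change was -0.01, beside 0.00 over all genes, while the median of its size was 0.80 beside 0.25. The knockout-labelled and WT libraries did not overlap in CPM for 29 of the 31, which is to be read against 73.1% of all tested genes.

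**Figure D1:**
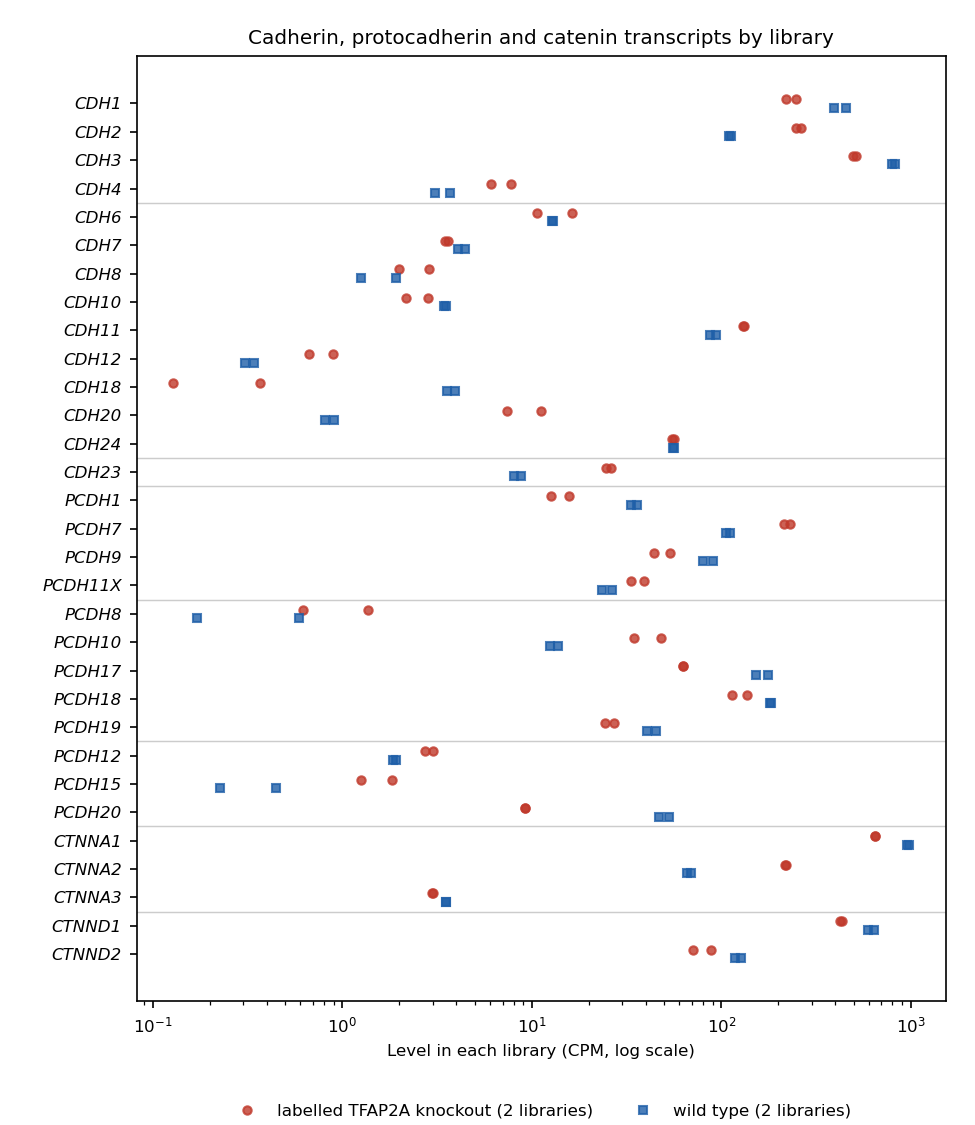
Level of each of the 31 tested members in CPM on a log axis, with 2 knockout-labelled libraries (red circles) and 2 WT libraries (blue squares) per gene and grey lines between subfamilies. CTNNA1 was at 647 and 649 CPM in the knockout-labelled libraries against 958 and 978 CPM in WT, and CDH6 and CDH24 are the genes whose groups overlap.

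Among the type I classic cadherins the epithelial members fell and the neural and retinal members rose. CDH1 (chromosome 16, 68771195 to 68869444, plus strand, hg19), the gene of E-cadherin, which holds epithelial sheets together, had 247 and 220 CPM in the knockout-labelled libraries, against 394 and 453 CPM in WT. Both knockout-labelled values lay below both WT values, and the log2 ratio was -0.86 (SE 0.08, adjusted p = 1.39e-05). CDH3, the gene of P-cadherin, which is found in basal epithelia and placenta, had 494 and 515 CPM in the knockout-labelled libraries, against 792 and 830 CPM in WT. It fell by 0.69 on the log2 scale (SE 0.05, adjusted p = 8.02e-08). The pair are neighbours on chromosome 16, where CDH3 (68678151 to 68732957, hg19) ends 38237 bp before CDH1 begins on the same strand.

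CDH2 (chromosome 18, 25530930 to 25757445, minus strand, hg19), the gene of N-cadherin, had 265 and 248 CPM in the knockout-labelled libraries, against 110 and 112 CPM in WT. The knockout-labelled libraries were 2.30-fold higher (log2 fold change 1.20, SE 0.05, adjusted p = 3.26e-10). CDH4, the gene of R-cadherin, first described in retina, had 7.76 and 6.12 CPM in the knockout-labelled libraries, against 3.08 and 3.71 CPM in WT. It rose at a much lower level, by 2.04-fold (adjusted p = 0.000633). CDH15, the gene of the muscle form M-cadherin, was not tested, with 6.5 counts in each knockout-labelled library against 7 and 0.5 counts in WT. The 6 markers of muscle summed to 42.99 and 36.53 CPM in the knockout-labelled libraries against 47.03 and 44.17 CPM in WT, mostly from ACTC1 and TNNT2, which did not pass. DES was the 1 called, lower. MYOD1 was at 0 in the knockout-labelled libraries and at only 0.0559 and 0.0567 CPM in WT. MYOG was at 0 in WT and at only 0.102 and 0.0458 CPM in the knockout-labelled libraries.

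Levels of different genes can be compared only per length, here the longest GENCODE protein-coding transcript of each. On that scale N-cadherin transcripts made up 28.7% and 27.6% of the type I total in the knockout-labelled libraries, against 9.53% and 9.02% in WT. The type I total itself was 213 and 208 CPM per kb in the knockout-labelled libraries, against 267 and 287 CPM per kb in WT. In the knockout-labelled libraries the order was CDH3 at 102, CDH2 at 59.2 and CDH1 at 47.8 CPM per kb, all means of 2. In WT it was CDH3 at 164, CDH1 at 86.6 and CDH2 at 25.7 CPM per kb. These totals and shares depend on the transcript length chosen. With the median protein-coding length the mean CDH2 share was 61.95% in the knockout-labelled group and 29.9% in WT, and the type I total turned round to 559 CPM per kb in the knockout-labelled libraries against 504 in WT.

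**Figure D2:**
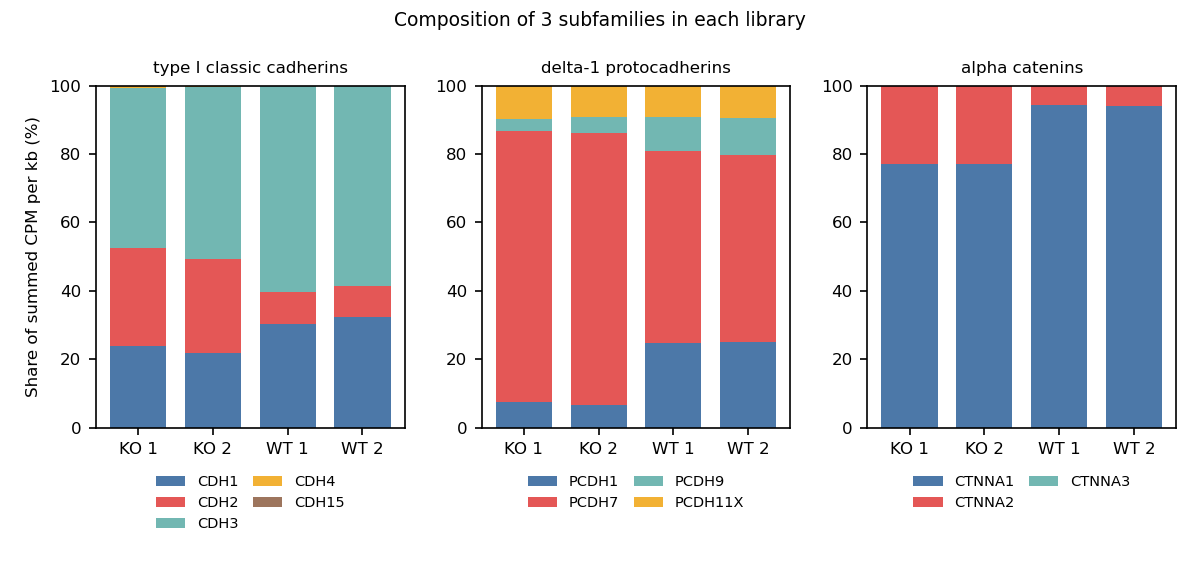
Share of each member in the summed CPM per kb of its subfamily (percent, from 0 to 100), as stacked bars for knockout-labelled libraries (KO 1 and 2) and WT libraries (WT 1 and 2). CDH2 takes 28.7% and 27.6% of the type I total in the knockout-labelled libraries against 9.53% and 9.02% in WT, and CTNNA2 22.7% and 22.8% of the alpha catenin total against 5.71% and 5.87% in WT.

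Of 9 type II classic cadherins tested, 2 were higher, 1 was lower and 6 did not pass. Thus 33.3% were called, below the 44.2% of all tested genes. CDH11, the gene of osteoblast cadherin, a mesenchymal form also found in neural crest, had 130 and 132 CPM in the knockout-labelled libraries, against 94.1 and 87.6 CPM in WT. It rose by 0.53 on the log2 scale (SE 0.06, adjusted p = 4.05e-06). The largest fold changes of the whole set were 2 type II genes of low level that moved in opposite directions. CDH20, known from the neural tube of frog embryos, had 11.1 and 7.40 CPM in the knockout-labelled libraries, against 0.811 and 0.907 CPM in WT. The ratio was 10.9 (log2 fold change 3.44, SE 0.27, adjusted p = 2.62e-07), and it lies on chromosome 18 like CDH2. CDH18, a cadherin of the brain, had 0.128 and 0.367 CPM in the knockout-labelled libraries (2.5 and 8 counts), against 3.91 and 3.54 CPM in WT. Its log2 ratio of -3.91 (SE 0.38, adjusted p = 1.35e-06) rests on those few counts, and was -5.09 without knockout-labelled replicate 2 and -3.32 without knockout-labelled replicate 1.

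CDH24 (chromosome 14, 23516270 to 23526747, hg19), another type II form, had 56.2 and 55.1 CPM in the knockout-labelled libraries, against 55.4 and 56.4 CPM in WT. The groups overlapped, and the difference was -0.01 on the log2 scale (SE 0.07, adjusted p = 0.939). CDH6, the gene of the kidney form K-cadherin, had 16.4 and 10.6 CPM in the knockout-labelled libraries, against 12.9 and 12.8 CPM in WT. Here both WT values lay between the knockout-labelled ones, and the estimate of 0.06 (SE 0.18) changed sign without knockout-labelled replicate 1. The remaining 4 that did not pass, all cadherins of the nervous system, were under 5 CPM. CDH7 was at 3.55 ± 0.0902 CPM in the knockout-labelled libraries against 4.24 ± 0.261 in WT (SD, n = 2 each) and CDH10 at 2.50 ± 0.452 CPM there against 3.48 ± 0.0653 in WT. CDH8 was at 2.43 ± 0.618 CPM in the knockout-labelled libraries against 1.59 ± 0.474 in WT, and CDH12 at 0.78 ± 0.164 there against 0.324 ± 0.0231 CPM in WT. CDH9 was not tested, with 5.5 and 6 counts in the knockout-labelled libraries and 0 and 0.5 in WT. CDH19 and CDH22 had 0 counts throughout, so a level below 0.137 to 0.17 CPM (3 counts, counting error only) could not be seen. CDH19 is a cadherin of glia derived from neural crest, and the 8 neural crest markers summed to 65.2 and 85.56 CPM in the knockout-labelled libraries against 115.6 and 116.2 CPM in WT. Of the 5 crest markers tested PAX7, SOX9 and NGFR were lower and SNAI2 and ETS1 did not pass, beside 22.3% of all tested genes lower. FOXD3 was at 0 in the knockout-labelled libraries and at only 0.112 and 0 CPM in WT, and SOX10 had at most 0.205 CPM in either group. Their part in these values was not tested.

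By length the type II total was 41.2 and 39.4 CPM per kb in the knockout-labelled libraries, against 33.7 and 33.005 CPM per kb in WT, well below the type I total. With the median protein-coding length the means were 133 CPM per kb in the knockout-labelled libraries and 99.0 in WT. By the longest transcript CDH11 and CDH24 supplied most of it in every library. CDH11 took 45.8% and 48.9% in the knockout-labelled libraries against 40.6% and 38.6% in WT, and CDH24 took 38.3% and 39.4% in the knockout-labelled libraries against 46.3% and 48.1% in WT.

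Of the cadherins outside these classes only CDH23 had enough counts. CDH23 encodes a partner in the tip links that pull open the transduction channels of hair cells, where it binds the product of PCDH15. It had 24.8 and 26.1 CPM in the knockout-labelled libraries, against 8.78 and 8.02 CPM in WT. It rose 3.02-fold (log2 fold change 1.60, SE 0.11, adjusted p = 3.22e-08). Its partner PCDH15, also on chromosome 10, had 1.82 and 1.26 CPM in the knockout-labelled libraries, against 0.447 and 0.227 CPM in WT, which is 8 and 4 counts in WT. It rose by 2.18 on the log2 scale (SE 0.44, adjusted p = 0.00102), and the groups did not overlap. The span of CDH23 holds C10orf54 and C10orf105 on the other strand. C10orf54 had 94.5 and 123 counts in the knockout-labelled libraries against 243.5 and 254.5 in WT, and C10orf105 had 54 and 67.5 counts in the knockout-labelled libraries against 18.5 and 11 in WT. CDH23 had 483.5 and 569.5 counts in the knockout-labelled libraries against 157 and 141.5 in WT. The sources used here do not say whether strand was used, so reads from shared stretches cannot be assigned. CDH13, whose product has a lipid anchor in place of a tail, had 10.5 and 14.5 counts in the knockout-labelled libraries and 3.5 and 6.5 in WT. CDH26 had 7 and 3.5 counts in the knockout-labelled libraries against 9 and 10.5 in WT. CDH16 and CDH17, the kidney and the liver-intestine forms, had at most 2.5 counts in any library.

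**Figure D3:**
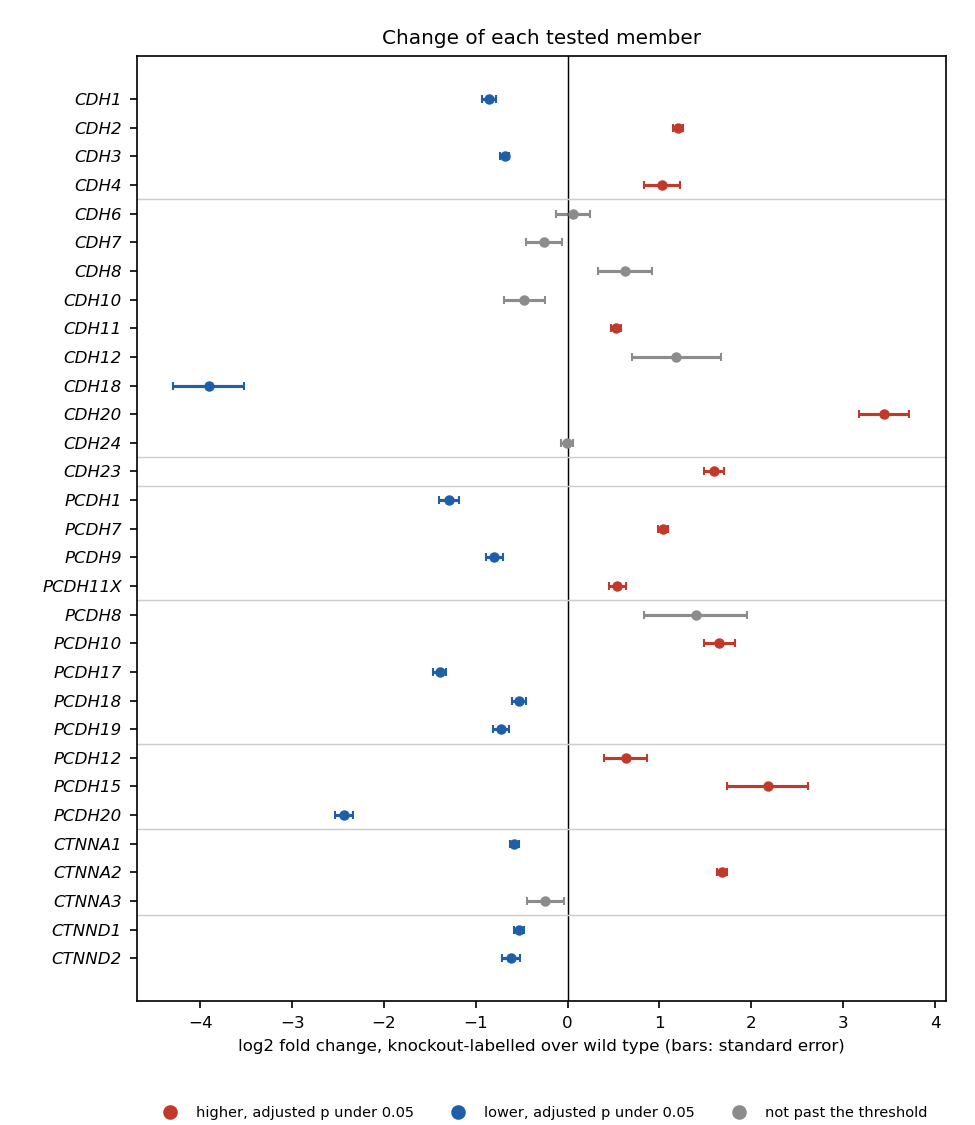
Log2 fold change of knockout-labelled over WT libraries for the 31 tested members, with standard errors as bars, coloured by call and grouped by subfamily. The 2 ends of the range are CDH20 at 3.44 and CDH18 at -3.91, and CDH24 sits at -0.01.

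All 4 delta-1 protocadherins passed, with 2 higher and 2 lower, beside 44.2% of all tested genes called. PCDH7 (chromosome 4, 30722037 to 31148423, plus strand, hg19), whose frog counterpart is an adhesion protein of embryonic ectoderm, had 231 and 215 CPM in the knockout-labelled libraries, against 106 and 111 CPM in WT. It was 2.05-fold higher (log2 fold change 1.04, SE 0.06, adjusted p = 2.27e-09). PCDH11X had 38.9 and 33.5 CPM in the knockout-labelled libraries, against 23.3 and 26.4 CPM in WT, a rise of 0.54 on the log2 scale (SE 0.10, adjusted p = 0.000362). PCDH11X has a near-identical copy on the Y chromosome, so its reads may be split by the counting, and its level is uncertain.

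PCDH1, a protocadherin of airway and other epithelia, had 15.7 and 12.7 CPM in the knockout-labelled libraries, against 33.4 and 35.8 CPM in WT. It was lower by 2.45-fold (log2 ratio -1.29, SE 0.11, adjusted p = 2.22e-07). PCDH9, a protocadherin of the brain, had 44.1 and 53.9 CPM in the knockout-labelled libraries, against 80.2 and 90.3 CPM in WT. Its log2 fold change was -0.80 (SE 0.10, adjusted p = 8.20e-05). Per length, PCDH7 took 79.0% and 79.5% of the delta-1 total in the knockout-labelled libraries, against 55.9% and 54.8% in WT, and PCDH1 took 7.59% and 6.62% in the knockout-labelled libraries against 24.8% and 24.96% in WT.

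Delta-2 protocadherins fell in 3 of 5 cases and rose in 1, beside 22.3% of all tested genes lower and 21.9% higher. PCDH17 had 62.5 and 62.8 CPM in the knockout-labelled libraries, against 152 and 177 CPM in WT, and was lower by 2.63-fold (log2 ratio -1.39, SE 0.07, adjusted p = 5.88e-09). In mouse neurons its product clusters synaptic vesicles and guides axons. PCDH18 had 137 and 114 CPM in the knockout-labelled libraries, against 182 and 180 CPM in WT, and fell by 0.53 on the log2 scale (SE 0.08, adjusted p = 0.000266). PCDH19, which binds N-cadherin and is the gene of an X-linked epilepsy, had 27.2 and 24.2 CPM in the knockout-labelled libraries, against 40.3 and 44.97 CPM in WT. It fell by 0.73 on the log2 scale (SE 0.09, adjusted p = 8.96e-06).

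PCDH10, a protocadherin of forebrain axon tracts in mouse, was the delta-2 member that rose. It had 34.6 and 47.8 CPM in the knockout-labelled libraries, against 13.8 and 12.5 CPM in WT, so that the knockout-labelled libraries differed from each other by about the whole WT level. The rise was 3.14-fold (log2 fold change 1.65, SE 0.17, adjusted p = 0.000174). PCDH8, whose frog counterpart acts in the segmentation of mesoderm, was at 0.988 ± 0.522 CPM in the knockout-labelled libraries and 0.379 ± 0.295 CPM in WT (SD, n = 2 each). It did not pass (adjusted p = 0.0599), but did in 5 of 13 alternatives, among them leaving out knockout-labelled replicate 2 or WT replicate 1. Over the alternatives its adjusted p was between 0.0229 and 0.436. Genes of chromosome 13 supplied 4 protocadherins, of which PCDH17, PCDH20 and PCDH9 were lower and PCDH8 did not pass.

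The largest fall among the protocadherins was that of PCDH20, outside the delta groups. PCDH20 (chromosome 13, 61983819 to 61989655, minus strand, hg19), known from the nervous system, had 9.17 and 9.21 CPM in the knockout-labelled libraries, against 46.7 and 53.0 CPM in WT. It was lower by 5.42-fold (log2 ratio -2.44, SE 0.10, adjusted p = 1.07e-10). PCDH12, a protocadherin of endothelium and trophoblast, was at 2.87 ± 0.208 CPM in the knockout-labelled libraries and 1.89 ± 0.0611 CPM in WT (SD, n = 2 each). It passed narrowly (adjusted p = 0.0428) and did not pass in 9 of 13 alternatives, including DESeq2 (adjusted p = 0.327) and leaving out any 1 library (0.0862 to 0.163). Of 8 endothelial markers 4 could be tested, with 3 lower and 0 higher, beside 22.3% of all tested genes lower. Those lower were KDR, EGFL7 and the endothelial cadherin CDH5. CDH5 had 0.333 and 0.596 CPM in the knockout-labelled libraries against 11.02 and 12.8 CPM in WT. TEK did not pass, at 15.3 and 12.9 CPM in the knockout-labelled libraries against 15.2 and 11.6 CPM in WT. Of those untested, PECAM1 was at 0 in all libraries. TIE1, CLDN5 and ERG had at most 0.895 CPM in any library, with TIE1 and CLDN5 higher on average in the knockout-labelled group and ERG lower. Markers of amnion and trophoblast summed to 205 to 277 CPM in the knockout-labelled libraries against 2110 to 2282 CPM in WT. Of these 8 markers 6 were lower and 2 higher, beside 22.3% and 21.9% of all tested genes. Their part in these values was not tested.

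Per length the 12 protocadherins summed to 83.7 and 77.7 CPM per kb in the knockout-labelled libraries, against 93.3 and 99.4 CPM per kb in WT. With the median protein-coding length the means were 149 CPM per kb in the knockout-labelled libraries and 215 in WT. By the longest transcript PCDH7 took 40.7% and 40.9% of that sum in the knockout-labelled libraries, against 16.8% and 16.5% in WT.

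Among the catenins 3 were lower, 1 did not pass, and the neural alpha catenin was higher, beside 44.2% of all tested genes called. CTNNA1 (chromosome 5, 138089085 to 138270723, plus strand, hg19), the gene of the epithelial alpha-E-catenin, had 647 and 649 CPM in the knockout-labelled libraries, against 958 and 978 CPM in WT. It fell by 0.58 on the log2 scale (SE 0.05, adjusted p = 2.98e-07). CTNNA2 (chromosome 2, 79740060 to 80875988, plus strand, hg19), the gene of the neuronal alpha-N-catenin, had 216 and 218 CPM in the knockout-labelled libraries, against 65.9 and 69.4 CPM in WT. It rose 3.21-fold (log2 fold change 1.68, SE 0.06, adjusted p = 1.42e-11). LRRTM1, which lies on the other strand within the span of CTNNA2, had 135.5 and 174 counts in the knockout-labelled libraries and 19.5 in each WT library. CTNNA2 itself had 4217.5 and 4763.5 counts in the knockout-labelled libraries against 1178.5 and 1224 in WT.

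Per length CTNNA2 made up 22.7% and 22.8% of the alpha catenin total in the knockout-labelled libraries, against 5.71% and 5.87% in WT, and CTNNA1 nearly all of the rest. With the median protein-coding length the mean share of CTNNA2 was 6.20% in the knockout-labelled libraries and 1.36% in WT. CTNNA3, the alpha-T-catenin of heart and testis, was at 2.99 ± 0.0121 CPM in the knockout-labelled libraries against 3.52 ± 0.00515 in WT (SD, n = 2 each) and did not pass (adjusted p = 0.36).

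Both delta catenins fell. CTNND1 (chromosome 11), the gene of p120, which keeps cadherins at the membrane, had 424 and 433 CPM in the knockout-labelled libraries, against 597 and 642 CPM in WT. It fell by 0.53 on the log2 scale (SE 0.05, adjusted p = 1.43e-06). The table also has a read-through gene, TMX2-CTNND1, with 8313 and 9539.5 counts in the knockout-labelled libraries and 10719.5 and 11354.5 in WT, which differ by at most 0.862% from those of CTNND1 in any library, so these rows share their reads. CTNND2, a p120 relative of neurons, had 88.3 and 71.2 CPM in the knockout-labelled libraries, against 118 and 127 CPM in WT. Its log2 fold change was -0.62 (SE 0.10, adjusted p = 0.00119), a fall in a gene of the nervous system beside the rises of CDH2 and CTNNA2.

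Promoter sequences of 26 members, 47 windows of 300 bases from 250 before to 50 after a start site, were found in RefSeq (GRCh38.p14). Windows of CDH1, CDH3, CDH6, CDH11, CDH13, CDH15, CDH16, CDH17, CDH22, CDH24, PCDH10, PCDH20 and CTNND1 were not analysed here. AP-2 proteins are known to bind palindromes of the form GCCNNNGGC, which reads the same on both strands, and this was searched for. It occurred in 7 of the 47 windows (14.9%), belonging to 6 members, beside 23.2% of all 35116 windows. The E-box letters CACCTG or, on the other strand, CAGGTG, which SNAI and ZEB repressors are known to bind, occurred in 4 windows (8.51%), beside 20.6% of all windows. Starts used in these cells are not given by counts per gene. The windows printed here are from CTNNA1 and CTNNA2, the alpha catenin genes called, which moved in opposite directions, and from CDH2. Of 4 windows each, 2 of CTNNA1 and 1 of CTNNA2 hold matches. CDH2 rose and holds none in either of its 2. CTNNA3, the alpha catenin gene that did not pass, also holds 1 match, in a window not printed. The printed windows run 5′ to 3′ on the strand of the gene, with matches to GCCNNNGGC in capitals.
CTNNA1, chr5:138753175-138753474, plus strand, GRCh38.p14: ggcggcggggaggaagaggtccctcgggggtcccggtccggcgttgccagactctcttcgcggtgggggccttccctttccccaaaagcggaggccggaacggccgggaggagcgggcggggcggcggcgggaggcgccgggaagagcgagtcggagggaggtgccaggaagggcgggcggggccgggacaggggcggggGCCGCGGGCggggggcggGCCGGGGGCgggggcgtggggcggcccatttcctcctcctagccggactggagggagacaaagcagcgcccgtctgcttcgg
CTNNA2, chr2:79512801-79513100, plus strand, GRCh38.p14: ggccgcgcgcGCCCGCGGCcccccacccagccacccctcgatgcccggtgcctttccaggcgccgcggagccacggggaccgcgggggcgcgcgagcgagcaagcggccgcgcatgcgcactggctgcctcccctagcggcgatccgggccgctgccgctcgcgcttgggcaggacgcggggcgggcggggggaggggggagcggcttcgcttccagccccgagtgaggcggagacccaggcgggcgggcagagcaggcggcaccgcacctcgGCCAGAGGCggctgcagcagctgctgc
CDH2, chr18:28177081-28177380, minus strand, GRCh38.p14: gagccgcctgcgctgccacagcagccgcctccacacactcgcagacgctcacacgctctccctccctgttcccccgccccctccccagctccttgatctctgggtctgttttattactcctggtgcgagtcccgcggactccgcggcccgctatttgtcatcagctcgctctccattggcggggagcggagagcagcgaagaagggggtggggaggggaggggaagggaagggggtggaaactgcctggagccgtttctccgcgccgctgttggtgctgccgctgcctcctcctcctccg
The printed windows of CTNNA1 and CTNNA2 hold 2 matches each, and a second window of CTNNA1, not printed, holds 2 more. A match describes letters only, and the absence of one says nothing of what binds elsewhere.

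Of 30 partners of cadherins at adherens junctions, all tested, 11 were lower, 4 higher and 15 did not pass, so that 50% were called, near the 44.2% of all genes. They had a median size of the log2 fold change of 0.20, beside 0.80 for the cadherins, protocadherins and catenins and 0.25 for all genes. Leaving out either WT library left 7 lower. NECTIN4, an immunoglobulin-type adhesion receptor of epithelia (PVRL4 in the table), had 7.76 and 6.07 CPM in the knockout-labelled libraries, against 39.5 and 45.6 CPM in WT (log2 fold change -2.63, adjusted p = 1.72e-09). LIMA1, an actin-bundling partner of alpha catenin, had 41.4 and 37.99 CPM in the knockout-labelled libraries, against 99.8 and 90.8 CPM in WT (log2 fold change -1.27, adjusted p = 4.10e-09). PTPRM, a receptor phosphatase that binds cadherins, had 31.8 and 28.3 CPM in the knockout-labelled libraries, against 13.1 and 11.4 CPM in WT (log2 fold change 1.29, adjusted p = 2.41e-07). SSX2IP, an afadin-binding protein, had 82.1 and 70.3 CPM in the knockout-labelled libraries, against 39.8 and 35.8 CPM in WT (log2 fold change 1.01, adjusted p = 7.21e-07). CTNNB1, the gene of beta-catenin, picked out after its values were seen because it joins the cadherins to the alpha catenins, had 850 and 806 CPM in the knockout-labelled libraries, against 1093 and 1100 CPM in WT. It fell by 0.41 on the log2 scale (adjusted p = 1.80e-05).

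The list of more distant cadherin superfamily genes also held FJX1, which is not itself a cadherin. Of the 19 listed, 16 were tested, with 5 higher, 5 lower and 6 not past the threshold, FJX1 being among the last. Of all genes 44.2% were called. Without WT replicate 1, or with DESeq2, 3 were higher. FAT4, a giant cadherin of planar polarity, had 211 and 191 CPM in the knockout-labelled libraries, against 66.1 and 65.1 CPM in WT (log2 fold change 1.61, adjusted p = 6.10e-11). CLSTN2, a synaptic calsyntenin, had 5.04 and 4.22 CPM in the knockout-labelled libraries, against 13.6 and 12.3 CPM in WT (log2 fold change -1.49, adjusted p = 2.45e-06). FAT2, a FAT cadherin of keratinocytes, had 18.9 and 15.9 CPM in the knockout-labelled libraries, against 30.2 and 33.8 CPM in WT (log2 fold change -0.88, adjusted p = 8.88e-06). CELSR1, a planar polarity gene of the epidermis and neural tube, had 91.4 and 75.9 CPM in the knockout-labelled libraries, against 131 and 146 CPM in WT (log2 fold change -0.73, adjusted p = 0.000257).

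Of the known regulators of cadherin genes 18 were tested (19 listed), of which 10 fell, 7 did not pass and 1 rose, beside 22.3% of all genes lower and 21.9% higher. With DESeq2, or without either knockout-labelled library, 8 fell, and without either WT library 9 fell. Their median log2 ratio was -0.35, beside 0.00 over all genes. Without knockout-labelled replicate 2, or without the GC trend, 2 rose. The list mixes activators of epithelial genes with repressors of CDH1, and members of each kind fell. GRHL1, a grainyhead activator, had 11.1 and 9.49 CPM in the knockout-labelled libraries, against 59.2 and 54.4 CPM in WT (log2 fold change -2.47, adjusted p = 7.29e-11). KLF4 had 1.61 and 1.33 CPM in the knockout-labelled libraries, against 6.88 and 8.96 CPM in WT (log2 fold change -2.42, adjusted p = 6.60e-07). OVOL2, which represses mesenchymal genes, had 9.86 and 10.5 CPM in the knockout-labelled libraries, against 14.7 and 14.8 CPM in WT (log2 fold change -0.53, adjusted p = 0.00245). FOXC2, a forkhead factor of mesenchyme, was the 1 that rose, with 13.4 and 19.4 CPM in the knockout-labelled libraries, against 1.87 and 1.62 CPM in WT (log2 fold change 3.23, adjusted p = 1.78e-07). TWIST1 was also lower, at 110 and 117 CPM in the knockout-labelled libraries against 157 and 153 CPM in WT (log2 fold change -0.45, adjusted p = 1.14e-05). KLF8 was lower too, while TWIST2, TCF3 and TCF4 did not pass. Among the SNAI and ZEB repressors of CDH1, chosen after their values were seen, SNAI1 had 30.5 and 35.2 CPM in the knockout-labelled libraries against 43.1 and 40.03 CPM in WT, and ZEB1 had 1.43 and 1.15 CPM there against 3.91 and 3.57 CPM in WT. Both fell (adjusted p = 0.00431 for SNAI1 and 0.000147 for ZEB1), and the call of SNAI1 was lost without knockout-labelled replicate 1 (0.0536) or WT replicate 1 (0.0667). SNAI2 and ZEB2 did not pass (ZEB2 did without knockout-labelled replicate 2), at 12.0 and 12.7 CPM in the knockout-labelled libraries against 10.96 and 9.33 CPM in WT for SNAI2 and at 18.1 and 11.8 CPM in the knockout-labelled libraries against 12.0 and 10.6 CPM in WT for ZEB2.

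The list of enzymes known to cut cadherins also held the non-catalytic gamma-secretase subunits NCSTN, APH1A, APH1B and PSENEN. Of these subunits NCSTN and APH1A were lower, APH1B was higher and PSENEN did not pass. The whole list had 6 higher, 5 lower and 6 not past the threshold of 17 tested (19 listed). Of all genes 21.9% were higher and 22.3% lower. The list's median log2 ratio was 0.09, and without WT replicate 1, 3 of its genes were higher. ST14, the gene of the surface protease matriptase, had 17.4 and 13.0 CPM in the knockout-labelled libraries, against 59.2 and 64.3 CPM in WT (log2 fold change -2.03, adjusted p = 2.47e-07). PSEN2, a catalytic subunit of gamma-secretase, had 26.9 and 24.1 CPM in the knockout-labelled libraries, against 17.7 and 16.0 CPM in WT (log2 fold change 0.60, adjusted p = 0.000272). ADAM15, a sheddase, had 52.3 and 54.4 CPM in the knockout-labelled libraries, against 41.5 and 44.97 CPM in WT, and the membrane metalloproteinase gene MMP14 had 216 and 232 CPM in the knockout-labelled libraries against 190 and 176 CPM in WT. They rose by 0.30 and 0.29 on the log2 scale (adjusted p = 0.00313 for ADAM15, lost without WT replicate 1, and 0.000757 for MMP14).

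**Figure D4:**
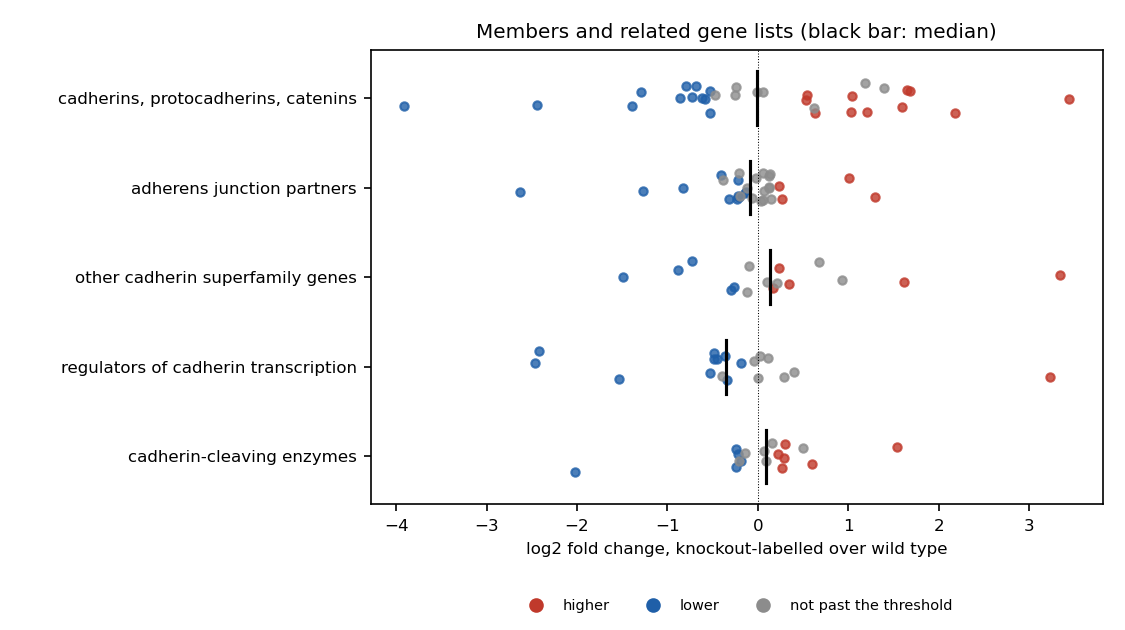
Log2 fold change of knockout-labelled over WT libraries for the tested genes of the set and of 4 related lists, 1 point per gene coloured by call, with the median as a black bar and vertical scatter for legibility only. The set runs from -3.91 for CDH18 to 3.44 for CDH20 around a median of -0.01, and the regulators have a median of -0.35 with FOXC2 at 3.23.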

How the data were processed

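PolyA-selected RNA of 4 libraries (2 knockout-labelled, 2 WT, day 7) was sequenced after TRIzol and column purification, per the labels' protocols. The authors deposited estimated counts per gene in 1 table. Per the submitters' processing notes TopHat, HOMER and DESeq2 were used with hg38. The sources used here give neither annotation, strand nor versions. All values are multiples of 0.5 and 37.0% were not whole, so they were rounded for the count models. Only 4.32% of 23020 genes began within 2000 bp of their GRCh38 start and 42 rows lay on contigs named as in hg19, so table positions are printed as hg19.

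Genes passing filterByExpr were TMM-scaled and tested with edgeR 4.0.16 (glmQLFit, robust, and glmQLFTest, R 4.3.3) on genotype alone. CPM uses deposited counts over TMM-adjusted library sizes. The SE is the log2 fold change over the square root of F. Replicates differed by more than sampling noise (chi-square per degree of freedom 4.16 in knockout-labelled and 4.31 in WT libraries).

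Values in every library are given for members that reached a mean of 5 CPM in either genotype, or that passed with a log2 ratio of 1 or more in size. For each related list the 4 largest such changes at 5 CPM are named. Members, subfamilies, related lists and markers were chosen with earlier results of these data known. 5 listed genes were matched by an older symbol. Alternatives were other scalings, no filter, DESeq2 1.42.0, limma-voom (limma 3.58.1), no rounding, each library left out, a replicate block and, added after seeing the data, removal of GC and length trends (lowess span 0.3) and another transcript length (GENCODE 29).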

Additional observations from a re-analysis of the deposited data

How the results depend on the processing

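With 2 libraries a group and 2 residual degrees of freedom, small changes may be missed, and levels near 1 CPM rest on few counts. Of 23 members called, 22 kept direction and call in all 13 alternatives, the exception being PCDH12. Across them 10 to 13 members were higher and 12 to 13 lower. The estimate of CDH6 changed sign without knockout-labelled replicate 1 (-0.27), without the GC trend (-0.0805) and without the length trend (-0.0121), and was 0.35 without knockout-labelled replicate 2. That of CDH24 changed sign with upper-quartile factors (0.0074), without the GC trend (0.0871), without knockout-labelled replicate 2 (0.0089) and without WT replicate 2 (0.0031), and was -0.0246 without WT replicate 1. CDH10 passed without the GC trend (-0.58). Among other genes named, SNAI1, ADAM15, SOX2 and LHX2 lost their calls in 2, 1, 4 and 3 alternatives, and ZEB2 passed without knockout-labelled replicate 2. The cause of these shifts was not tested.

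DESeq2 called 2262 genes higher, against 3427, and 3 genes of the distant superfamily list higher, against 5. Other protocadherins higher were 1 rather than 2 with DESeq2, limma-voom, unrounded values, the replicate block, no length trend or any 1 library left out. Delta-2 members higher were 2 rather than 1 without the filter, with the replicate block or without the GC trend, and 1 to 2 on leaving out a library. Without the GC trend 7 junction partners were higher against 4, 2 regulators against 1, and 2 type II members were lower against 1. On leaving out a library, junction partners lower were 7 to 10 and regulators higher 1 to 2. Genes higher were then 3 to 5 in the cleaving enzyme list and 3 to 6 in the distant superfamily list.

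With the median protein-coding length, sums in CPM per kb were 559 in knockout-labelled and 504 in WT libraries for type I, and in the same order 133 and 99.0 for type II and 149 and 215 for protocadherins. Mean shares were then 61.95% in knockout-labelled and 29.9% in WT libraries for CDH2, and in the same order 6.20% and 1.36% for CTNNA2 and 33.6% and 11.3% for PCDH7.

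Same-numbered libraries did not deviate together (correlation -0.05 across genes), and the labels give no pairing. With the replicate block 11 members were higher and 12 lower, and 3050 and 3154 of all genes.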

Other observations

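Of the members 9 lie on chromosome 5, 7 on chromosome 16 and 4 each on chromosomes 13 and 18. These numbers were not set against those of all genes per chromosome. On chromosome 5 the members CTNND2, CDH18, CDH12, CDH10, CDH9 and CDH6 come in that order between 10971954 and 31329253 (hg19), leaving aside genes outside the set. Of these CTNND2 and CDH18 were lower, CDH12, CDH10 and CDH6 did not pass and CDH9 was not tested. On chromosome 18 CDH2 and CDH20 were higher, CDH7 did not pass and CDH19 had no count.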
